A study of Mus musculus with 6 samples.

Results

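Receptor subunits for interferons and for cytokines of the IL-10, IL-6 and IL-17 families were examined in Paneth cells (PCs), which sit at the bottom of small intestinal crypts and secrete antimicrobial peptides. The subunits were chosen by name, as receptor chains through which a PC could receive cytokine signals besides type I interferon, and their number was 10 of the 55414 genes in the count table. They were Ifnar1 and Ifnar2 (type I interferon receptor), Ifngr1 and Ifngr2 (interferon-gamma receptor), Ifnlr1 (interferon-lambda receptor), Il10rb (shared chain of the interferon-lambda, IL-10 and IL-22 receptors), Il22ra1 (IL-22 receptor), Il6ra and Il6st (IL-6 receptor) and Il17rc (IL-17 receptor). All 10 passed the low-count filter and were tested. Libraries were made from PCs sorted 15 h after injection of phosphate-buffered saline (PBS, the control) or tumor necrosis factor (TNF), with 3 libraries of different mice per group. All 6 mice, controls included, were C57BL/6J and labeled as knockouts of Ifnar1. The labels give neither the knockout allele, the TNF dose nor the age of the mice, and there was no group with intact Ifnar1. Within these libraries, fewer cells of a type and less RNA per cell cannot be told apart.

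Interferons and most of these cytokines signal through paired transmembrane chains. A ligand-binding chain sets which cytokine is recognized, a second and often shared chain completes the receptor, and Janus kinases (JAKs) bound to the chains activate STAT transcription factors. IL-17 receptors use the adaptor Act1 (gene Traf3ip2) in place of JAKs. In the intestinal epithelium, interferon-lambda and IL-22 are known for acting mainly on epithelial cells, and interferon-gamma is known as a trigger of PC degranulation and death.

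Total counts were 12747484 to 17039511 per library. PC marker genes were abundant, with all 14 tested and a summed level of 410052 to 506306 CPM (counts scaled to a common library total) in PBS and 306590 to 674738 CPM after TNF. The library of TNF replicate 1 stood apart from the other TNF libraries. On the first principal component, which held 48.9% of the variance, it lay at -39.3, beside the PBS libraries at -35.8 to -28.7, whereas TNF replicates 2 and 3 lay at 63.0 and 73.1. Fold changes of the subunits are therefore given with and without it, and since it was singled out on these same data, p-values without it are not independent evidence. Markers of other cells also differed between libraries. The summed level of 12 enterocyte markers was 564.5 to 672 CPM after PBS and 299 to 428 CPM after TNF, and that of 6 stem cell markers was 2554 to 3144 CPM after PBS, 4692 CPM after TNF replicate 1 and 901 and 797 CPM after TNF replicates 2 and 3. The 8 goblet cell markers summed to 4929 to 5250 CPM after PBS and 4056 to 4977 CPM after TNF, the 8 tuft cell markers to 469 to 1655 and 590 to 1143 CPM, and the 8 enteroendocrine markers to 49.4 to 131 and 47.0 to 144 CPM. The 10 leukocyte markers summed to 21.6 to 53.6 CPM after PBS and 34.2 to 43.7 CPM after TNF, with Cd3g at 0 in all 6 libraries, and of 8 endothelial, stromal and red cell markers 5 were at 0 in all 6. Without TNF replicate 1, 7 of 11 tested enterocyte, 5 of 8 goblet cell, 3 of 6 stem cell and 3 of 14 PC markers were called lower and 1 of 8 enteroendocrine markers higher. That fit called 5.4% of all genes lower and 9.1% higher. With all 6 libraries edgeR called 0 markers, DESeq2 3 (Apoa1, Apob and Klk1) and limma-voom with sample weights 14, beside 0%, 1.86% and 11.5% of all genes. Apoa4 and Lct, called lower without TNF replicate 1, were untested with all 6 libraries and entered only through PBS libraries, where they were high. Apoa1 passed the filter only through PBS libraries, with and without TNF replicate 1, so its values are a description. The tested marker genes without overlap were Mmp7, higher after TNF (log2 fold change 0.89, adjusted p 0.429), and Kit (-0.39, adjusted p 0.571), Apoa1 (-5.11, adjusted p 0.270), Apob (-1.41, adjusted p 0.278), Sis (-1.61, adjusted p 0.282) and Klk1 (-1.06, adjusted p 0.270), lower. Over all tested genes, 9.07% were higher and 7.82% lower without overlap. The part of these cells in the receptor results was not tested.

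The largest positive fold changes after TNF among the subunits were those of the interferon-gamma receptor chains. Ifnlr1 had a negative log2 fold change (-1.03) of nearly the same size as that of Ifngr1 (1.07). In edgeR with the low-count filter, however, no subunit passed with all 6 libraries. Of the 10 subunits, 8 had a positive log2 fold change (TNF over PBS) and 2 a negative one, with a median of 0.39 beside -0.00 over all 13026 tested genes. Of the positive values, those of Ifnar1 (0.12), Il10rb (0.03) and Il6ra (0.28) changed sign under at least 1 other setting. With all 6 libraries and that filter, none passed an adjusted p under 5% (edgeR quasi-likelihood test, Benjamini-Hochberg adjustment), and 0% of all tested genes did. At an unadjusted p under 0.05 there were 4 subunits (Ifngr1, Ifngr2, Ifnlr1 and Il6st), and 12.3% of all genes. DESeq2 called 2 (Ifngr1 and Ifngr2, both higher), beside 1.86% of the genes it tested (1.58% higher, 0.277% lower). Limma-voom with sample weights called 3 (Ifngr1, Ifngr2 and Il6st, all higher), beside 11.5% of genes (7.06% higher, 4.47% lower), and edgeR without a low-count filter called Ifngr1 and Ifngr2 higher, beside 2.94% of genes (2.1% higher, 0.849% lower). The groups did not overlap, with every TNF library above every PBS library, for 3 subunits (Ifnar2, Ifngr1 and Ifngr2) and for 9.07% of all genes, and with every TNF library below for 1 subunit (Ifnlr1) and for 7.82% of all genes, 16.9% in either direction. With TNF replicate 1 left out, 4 subunits passed 5%, all of them higher (Ifngr1, Ifngr2, Il6st and Il17rc), beside 14.5% of all genes (9.1% higher and 5.4% lower). The plot of levels by library shows these values for all 10 subunits.

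**Figure D1:**
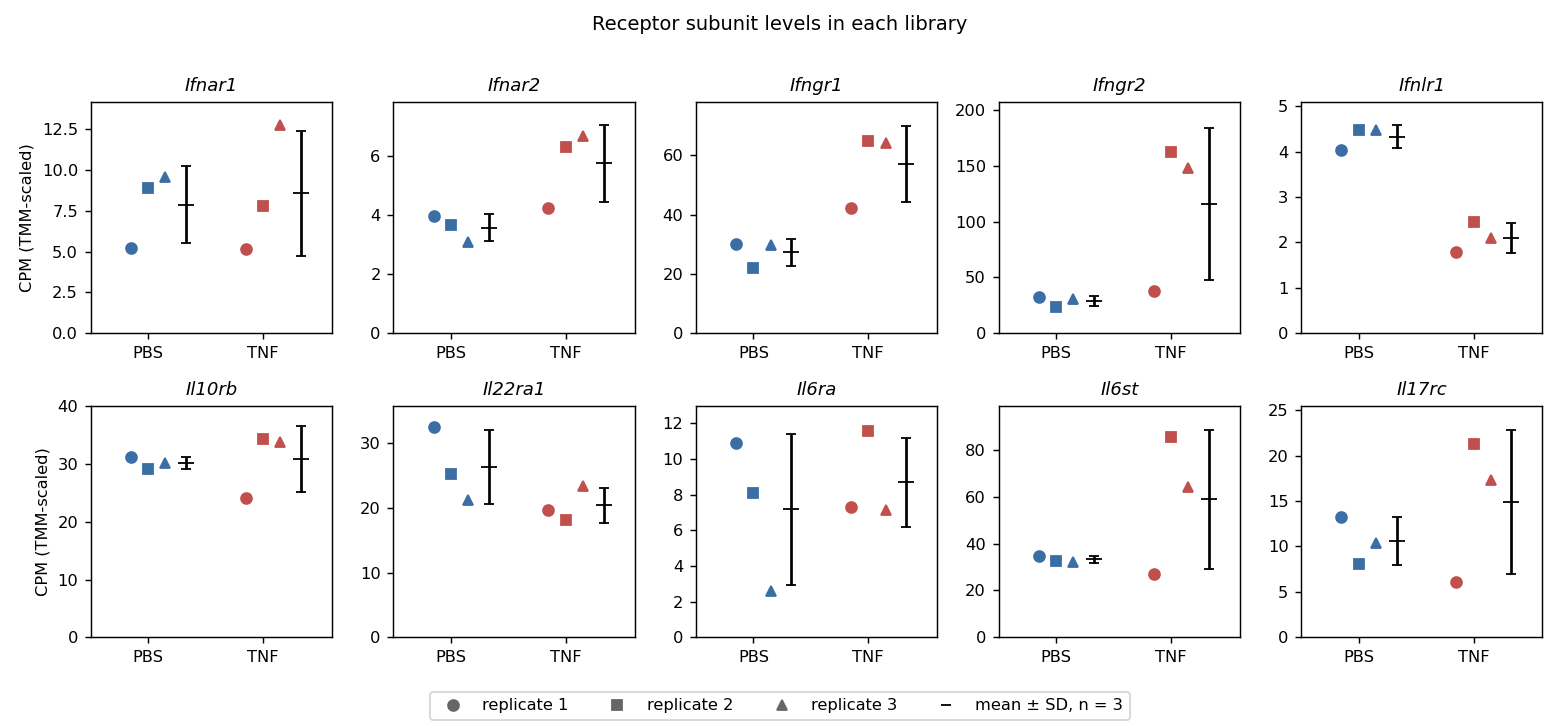
Level of each receptor subunit (CPM on TMM-scaled library sizes, vertical axis, starting at 0) in the 3 PBS (blue) and 3 TNF (red) libraries, with marker shapes for the replicates and black bars for mean ± SD, n = 3. Ifngr1, Ifngr2 and Ifnar2 were higher in every TNF library than in any PBS library, Ifnlr1 was lower in every TNF library, and TNF replicate 1 (red circle) was the lowest TNF library for Ifngr2, at 37.8 CPM beside 162 and 148 CPM.

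The interferon-gamma receptor is built from Ifngr1, the ligand-binding chain, and Ifngr2, which completes the receptor and brings in Jak2. Ifngr2 (ENSMUSG00000022965, chr16:91343906-91362512, plus strand, GRCm39) had 32.2, 23.6 and 31.1 CPM after PBS, in replicate order, and 37.8, 162 and 148 CPM after TNF. The groups did not overlap, but TNF replicate 1 was only slightly above the highest PBS library. Means were 29.0 ± 4.71 CPM (SD, n = 3) and 116 ± 68.1 CPM, a fold change of 4.01 (log2 fold change 2.00, SE 0.47, adjusted p 0.270). Leaving TNF replicate 1 out, the log2 fold change was 2.44 (SE 0.21, adjusted p 4.11e-05), the largest of the 10 subunits in either fit. Over all settings tried the adjusted p of Ifngr2 ranged from 1.41e-09 to 0.897.

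Ifngr1 (ENSMUSG00000020009, chr10:19467697-19485977, plus strand) had 30.2, 21.9 and 29.8 CPM after PBS and 42.2, 64.7 and 64.2 CPM after TNF. Every TNF library was above every PBS library, and TNF replicate 1 lay between the PBS libraries and the other TNF libraries. Means were 27.3 ± 4.66 and 57.0 ± 12.8 CPM (log2 fold change 1.07, SE 0.24, adjusted p 0.270). The log2 fold change without TNF replicate 1 was 1.26 (SE 0.20, adjusted p 0.00209), and the adjusted p over all settings ranged from 0.00209 to 0.897. DESeq2 called both chains with all 6 libraries, with adjusted p of 0.00205 for Ifngr2 and 0.0184 for Ifngr1.

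The proximal promoters of the 4 subunits called without TNF replicate 1 are shown because these genes were called higher together. Each sequence is the RefSeq window of 250 bases before to 50 bases after the transcription start, read 5′ to 3′ on the gene's plus strand and placed on GRCm39 by an exact and unique match.
Ifngr1, chr10:19467447-19467746: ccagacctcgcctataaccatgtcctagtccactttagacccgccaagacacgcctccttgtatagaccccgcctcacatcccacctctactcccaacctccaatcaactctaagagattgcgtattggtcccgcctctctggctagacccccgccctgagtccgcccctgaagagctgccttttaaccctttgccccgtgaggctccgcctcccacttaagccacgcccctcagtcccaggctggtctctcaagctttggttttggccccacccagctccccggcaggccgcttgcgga
Ifngr2, chr16:91343697-91343996: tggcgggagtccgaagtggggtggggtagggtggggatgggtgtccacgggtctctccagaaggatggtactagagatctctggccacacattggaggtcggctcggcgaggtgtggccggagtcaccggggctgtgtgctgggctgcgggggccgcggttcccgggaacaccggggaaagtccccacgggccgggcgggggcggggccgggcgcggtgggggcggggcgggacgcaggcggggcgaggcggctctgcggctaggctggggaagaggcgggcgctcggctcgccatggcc
Il6st, chr13:112600354-112600653: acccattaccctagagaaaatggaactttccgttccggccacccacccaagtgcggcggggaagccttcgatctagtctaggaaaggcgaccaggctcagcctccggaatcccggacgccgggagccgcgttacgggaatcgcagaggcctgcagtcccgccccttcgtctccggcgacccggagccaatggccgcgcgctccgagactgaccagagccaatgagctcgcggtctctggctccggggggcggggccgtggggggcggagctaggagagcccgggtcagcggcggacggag
Il17rc, chr6:113448166-113448465: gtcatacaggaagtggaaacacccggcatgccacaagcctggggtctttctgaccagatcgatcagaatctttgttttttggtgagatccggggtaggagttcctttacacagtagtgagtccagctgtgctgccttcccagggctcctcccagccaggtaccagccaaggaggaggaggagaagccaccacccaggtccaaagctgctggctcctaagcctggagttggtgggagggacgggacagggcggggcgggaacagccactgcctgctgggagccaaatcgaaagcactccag
Promoter records were found for 9 of the 10 subunits, all except Il10rb.

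The type I interferon receptor was the one disrupted by the genotype. Ifnar1 (ENSMUSG00000022967, chr16:91281942-91305789, plus strand), the chain that carries Tyk2, was counted in every library, at 5.19, 8.88 and 9.55 CPM after PBS and 5.18, 7.78 and 12.7 CPM after TNF. Because the labels do not say which exons were removed and the counts are summed over the whole gene, these reads do not check the genotype. The groups overlapped fully (log2 fold change 0.12, SE 0.39, adjusted p 0.925), also without TNF replicate 1 (0.39, SE 0.34, adjusted p 0.505). Its partner Ifnar2 (ENSMUSG00000022971, chr16:91169618-91202723, plus strand), which binds the ligand most tightly, had 3.97, 3.67 and 3.09 CPM after PBS and 4.25, 6.31 and 6.68 CPM after TNF. All TNF libraries lay above all PBS libraries, by a narrow margin for TNF replicate 1. The log2 fold change of Ifnar2 was 0.69 (SE 0.36, adjusted p 0.472) with all libraries and 0.88 (SE 0.36, adjusted p 0.135) without TNF replicate 1, so it did not pass in either fit. These values rest on 42 to 129 counts of Ifnar2 per library.

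The interferon-lambda receptor pairs Ifnlr1, which binds the ligand, with Il10rb. Ifnlr1 (ENSMUSG00000062157, chr4:135413514-135435492, plus strand) had 4.04, 4.47 and 4.48 CPM after PBS and 1.78, 2.45 and 2.09 CPM after TNF. The groups did not overlap, and here TNF replicate 1 lay with the other TNF libraries. Means of Ifnlr1 were 4.33 ± 0.253 and 2.11 ± 0.331 CPM (log2 fold change -1.03, SE 0.40, unadjusted p 0.0304, adjusted p 0.361). Leaving TNF replicate 1 out gave -0.91 (SE 0.44, adjusted p 0.202), and no setting brought Ifnlr1 past 5%, with adjusted p from 0.101 to 0.919. The counts behind these values were low, at 56, 67 and 61 in PBS and 21, 50 and 26 in TNF. The summed enterocyte markers given above were also lower in every TNF library, and their part in the Ifnlr1 values was not tested.

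Il10rb (ENSMUSG00000022969, chr16:91203012-91224600, plus strand), the chain that the interferon-lambda, IL-10 and IL-22 receptors share, had the smallest SD among the PBS libraries relative to its mean. Its levels were 31.2, 29.2 and 30.3 CPM after PBS and 24.2, 34.4 and 33.9 CPM after TNF. The TNF libraries lay on both sides of the PBS range, and the log2 fold change was 0.03 (SE 0.21, adjusted p 0.964), a sign that depended on the scaling, and 0.20 (SE 0.19, adjusted p 0.537) without TNF replicate 1. Il22ra1 (ENSMUSG00000037157, chr4:135455428-135479451, plus strand), the IL-22-binding chain, had 32.5, 25.3 and 21.2 CPM after PBS and 19.7, 18.1 and 23.4 CPM after TNF. These groups overlapped, with log2 fold changes of -0.37 (SE 0.23, adjusted p 0.547) with all libraries and -0.33 (SE 0.24, adjusted p 0.412) without TNF replicate 1. Of the other chains that pair with Il10rb or bind IL-22, Il10ra and Il20ra had 0 counts in all 6 libraries. The soluble IL-22-binding protein Il22ra2 had 0 counts in 4 libraries and 2 and 8 counts in PBS replicate 2 and TNF replicate 2. Il20rb, a chain of the IL-20 and IL-24 receptors, was at 1.15 to 3.54 CPM after PBS and 2.72 to 3.70 CPM after TNF (log2 fold change 0.57, SE 0.52, adjusted p 0.685).

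Il6st encodes gp130, the signaling chain shared by IL-6, IL-11, LIF, oncostatin M and IL-27 receptors. Il6st (ENSMUSG00000021756, chr13:112600604-112646620, plus strand) had 34.8, 32.7 and 32.1 CPM after PBS and 26.9, 85.6 and 64.1 CPM after TNF. TNF replicates 2 and 3 were above all PBS libraries, whereas TNF replicate 1 was below all of them. With all 6 libraries the log2 fold change of Il6st was 0.83 (SE 0.36, unadjusted p 0.0449, adjusted p 0.40), and without TNF replicate 1 it was 1.19 (SE 0.20, adjusted p 0.00231). Its adjusted p over all settings ranged from 0.00231 to 0.919.

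Il6ra (ENSMUSG00000027947, chr3:89771366-89820719, minus strand), the IL-6-binding chain, had the widest relative spread among the PBS libraries. Its levels were 10.9, 8.08 and 2.57 CPM after PBS and 7.31, 11.6 and 7.17 CPM after TNF. The groups overlapped, with log2 fold changes of 0.28 (SE 0.48, adjusted p 0.845) with all libraries and 0.41 (SE 0.48, adjusted p 0.633) without TNF replicate 1. Other chains that pair with gp130 set the range of cytokines it could serve. Il11ra1, the IL-11-binding chain, was at 9.81, 5.01 and 7.35 CPM after PBS and 7.48, 4.21 and 5.80 CPM after TNF (log2 fold change -0.35, SE 0.37, adjusted p 0.743). Lifr, the LIF receptor chain, was at 3.25, 0.934 and 2.35 CPM after PBS and 3.91, 5.58 and 1.93 CPM after TNF (log2 fold change 0.81, SE 0.59, adjusted p 0.606).

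Osmr, the oncostatin M receptor chain and a partner of gp130, was found mainly in TNF replicates 2 and 3. It had 8, 3 and 2 counts in PBS and 1, 491 and 242 counts in TNF, or 0.577, 0.200 and 0.147 CPM against 0.0850, 24.0 and 19.5 CPM. TNF replicate 1 had the lowest level of all 6 libraries, and the low-count filter, which needs 3 libraries above its minimum when all 6 are used, left Osmr untested. In the fit without TNF replicate 1, Osmr had a log2 fold change of 6.13 (SE 0.44, adjusted p 1.20e-05). It entered that fit only through TNF replicates 2 and 3, the libraries where it was high, so these values are a description. Of the remaining partners, Cntfr had 1 count in all libraries together and Il27ra 5 counts, all in TNF replicate 2.

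**Figure D2:**
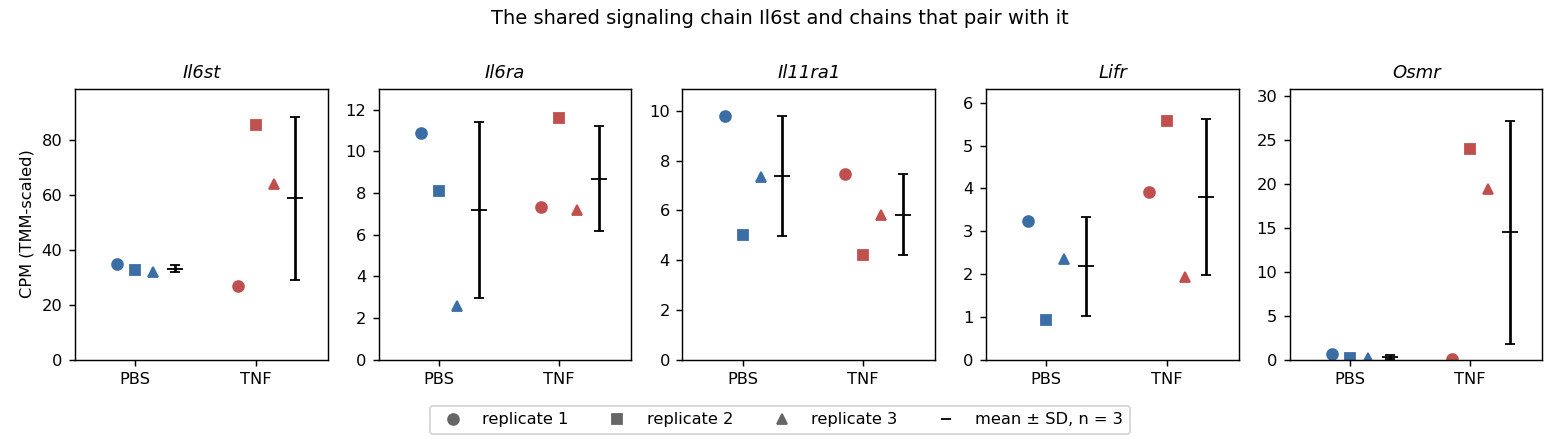
Levels (CPM on TMM-scaled library sizes, vertical axes starting at 0) of the shared chain Il6st and of 4 chains that pair with it, in 3 PBS (blue) and 3 TNF (red) libraries, with marker shapes for the replicates and bars for mean ± SD, n = 3. Il6st and Osmr were high in TNF replicates 2 and 3 and lowest in TNF replicate 1, whereas Il6ra, Il11ra1 and Lifr overlapped between groups.

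IL-17A and IL-17F act through Il17rc paired with Il17ra, and IL-17C through Il17re with Il17ra. Il17rc (ENSMUSG00000030281, chr6:113448388-113460103, plus strand) had 13.3, 8.01 and 10.4 CPM after PBS and 6.03, 21.3 and 17.3 CPM after TNF. As for Il6st, TNF replicates 2 and 3 were above all PBS libraries and TNF replicate 1 below them. The log2 fold change of Il17rc was 0.50 (SE 0.42, adjusted p 0.660) with all libraries and 0.89 (SE 0.26, adjusted p 0.0429) without TNF replicate 1, the weakest of the 4 calls, with adjusted p from 0.0429 to 0.961 over all settings. Il17ra was at 12.2, 10.7 and 10.7 CPM after PBS and 8.67, 13.6 and 14.3 CPM after TNF (log2 fold change 0.13, SE 0.27, adjusted p 0.869). Il17re was at 0.649 to 0.868 CPM after PBS and 0.440 to 1.53 CPM after TNF (log2 fold change 0.23, SE 0.75, adjusted p 0.923).

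**Figure D3:**
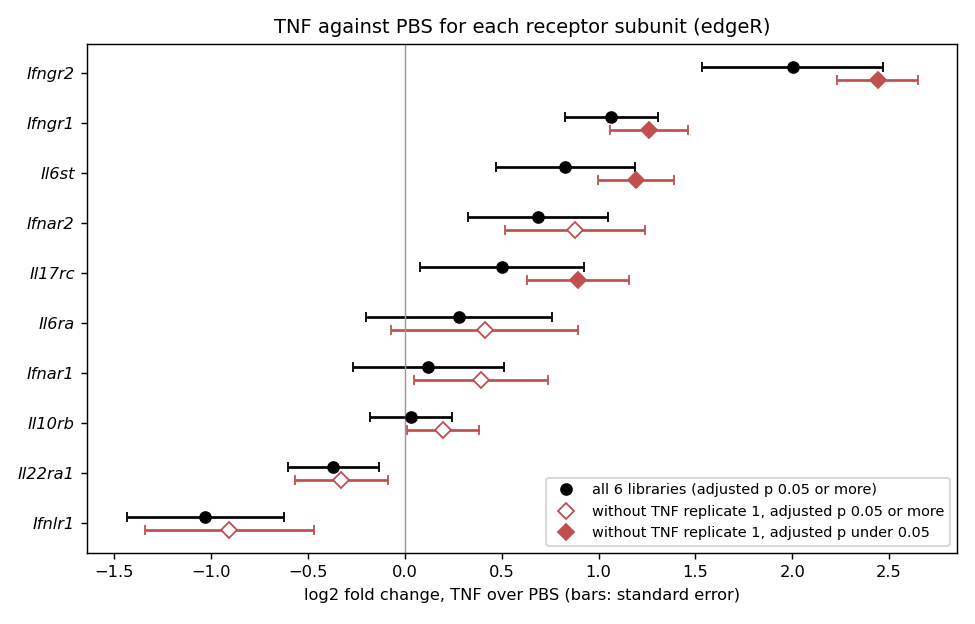
Log2 fold change of TNF over PBS (horizontal axis) for each receptor subunit, with bars for the standard error, from edgeR with all 6 libraries (black) and without TNF replicate 1 (red diamonds, filled where the adjusted p was under 0.05). Values ran from -1.03 for Ifnlr1 to 2.00 for Ifngr2 with all libraries, and the filled diamonds are Ifngr2, Ifngr1, Il6st and Il17rc.

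Levels of different genes were compared as CPM per kilobase of annotated exon. In PBS the order from the highest level was Il22ra1 (10.03 ± 2.17 CPM per kilobase, SD, n = 3), Ifngr1 (9.58 ± 1.64), Ifngr2 (6.41 ± 1.04), Il10rb (4.92 ± 0.163), Il17rc (2.32 ± 0.581), Il6st (2.14 ± 0.0899), Ifnlr1 (1.02 ± 0.0592), Ifnar1 (0.970 ± 0.289), Ifnar2 (0.955 ± 0.120) and Il6ra (0.811 ± 0.478). The IL-22, interferon-gamma and shared IL-10 family chains were thus above all the others, and the type I and lambda interferon chains were near the bottom. All mice were labeled as Ifnar1 knockouts, so the rank of Ifnar1 does not give the level of an intact gene. Neighbors that did not keep their order in all 3 PBS libraries were Il22ra1 and Ifngr1, Il17rc and Il6st, and each step from Ifnlr1 down to Il6ra. In TNF the order was Ifngr2 (25.7 ± 15.1 CPM per kilobase), Ifngr1 (20.04 ± 4.51), Il22ra1 (7.77 ± 1.03), Il10rb (5.02 ± 0.934), Il6st (3.79 ± 1.91), Il17rc (3.28 ± 1.74), Ifnar2 (1.54 ± 0.350), Ifnar1 (1.05 ± 0.472), Il6ra (0.981 ± 0.284) and Ifnlr1 (0.494 ± 0.0776). Ifngr1 was above Il22ra1 and Ifnlr1 was the lowest subunit in every TNF library, and the neighbors that did not keep their order in all 3 were Ifngr2 with Ifngr1 and Ifnar1 with Il6ra. The length used moved some of these levels. Over all 6 libraries, Il10rb averaged 4.97 CPM per kilobase by all annotated exons and 7.93 by its longest transcript, Il6st 2.96 and 5.18, and Ifnar1 1.01 and 1.55. By the canonical transcript, Ifnar1 averaged 2.01 and Il17rc 5.52, beside 2.80 for Il17rc by all exons. With either transcript length Ifngr1 was above Il22ra1 in all 3 PBS libraries, and the means of Il10rb and Ifngr2 in PBS and of Il10rb and Il22ra1 in TNF changed places, each pair keeping its new order in only 1 of 3 libraries. Ifnlr1 then had a lower mean than Ifnar1 and Ifnar2 in PBS. By the longest transcript Il6st was above Il17rc in all 3 PBS libraries. By the canonical transcript the mean of Ifnar1 passed that of Ifnar2 in TNF, with this order in 1 of 3 libraries.

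The balance of the chains within a receptor was compared as the log2 ratio of their counts per kilobase in each library, which does not depend on library scaling. The ratio of Ifnlr1 to Il10rb was -2.42, -2.18 and -2.23 in PBS and -3.24, -3.29 and -3.49 in TNF. These groups did not overlap and TNF replicate 1 lay with the other TNF libraries, with a difference of -1.06 (two-sided exact permutation test, p = 0.1, the smallest that 3 against 3 libraries can give, adjusted p 0.4 over 6 ratios). The ratio of Ifngr1 to Ifngr2 was 0.57, 0.56 and 0.60 in PBS and 0.83, -0.66 and -0.54 in TNF. This ratio hardly varied among the PBS libraries, which had more Ifngr1 than Ifngr2 per kilobase, as did TNF replicate 1. TNF replicates 2 and 3 had the reverse (difference between groups -0.70, exact permutation p = 0.4, adjusted p 0.6). With TNF replicate 1 left out, the differences were -1.11 for Ifnlr1 to Il10rb and -1.18 for Ifngr1 to Ifngr2 (exact permutation p = 0.2 for each). The other 4 ratios overlapped between groups. Their differences were -0.59 for Ifnar1 to Ifnar2 (exact permutation p = 0.2, adjusted p 0.4), -0.37 for Il22ra1 to Il10rb (p = 0.2, adjusted p 0.4), -0.20 for Il6ra to Il6st (p = 0.9, adjusted p 0.9) and 0.24 for Il17rc to Il17ra (p = 0.5, adjusted p 0.6). With all mice labeled as Ifnar1 knockouts, the ratio of Ifnar1 to Ifnar2 does not give the balance of an intact receptor. Il6ra was below Il6st, and Ifnlr1 below Il10rb, in 6 of 6 libraries by all annotated exons. Il22ra1 was above Il10rb in 6 of 6 by all annotated exons and in 5 of 6 by the longest or the canonical transcript.

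**Figure D4:**
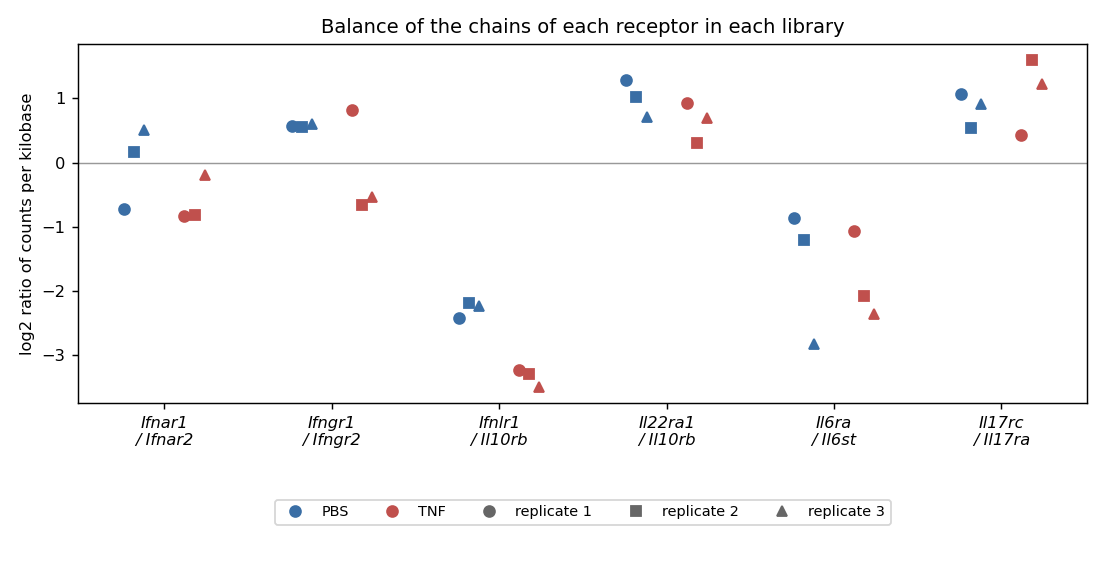
Log2 ratio of counts per kilobase of exon between the chains of each receptor (vertical axis) in 3 PBS (blue) and 3 TNF (red) libraries, with marker shapes for the replicates and a line at 0 where the chains are equal. The ratio of Ifnlr1 to Il10rb was lower in every TNF library than in any PBS library, and that of Ifngr1 to Ifngr2 was below 0 in TNF replicates 2 and 3.

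Several of the subunit genes lie next to each other in the genome. On chromosome 16, Ifnar2, Il10rb, Ifnar1 and Ifngr2 follow each other on the plus strand within 193 kb, and on chromosome 4, Ifnlr1 and Il22ra1 follow each other on the plus strand within 65.9 kb. Among the 4 genes on chromosome 16, the log2 fold change without TNF replicate 1 was 0.88 for Ifnar2, 0.20 for Il10rb, 0.39 for Ifnar1 and 2.44 for Ifngr2, of which Ifngr2 passed 5%. Whether these neighbors differed from each other was not tested. Ifnar2 and Il10rb are 288 bases apart, and the annotated same-strand gene Gm21970 spans both, sharing 19.96% of the exon bases of Ifnar2 and 27.9% of those of Il10rb. Gm21970 had 0 counts in all 6 libraries, and how reads in shared exons were assigned is not given in the sources used here, so the levels of Ifnar2 and Il10rb may be understated. Annotated RNAs on the opposite strand share 16.4% of the exon bases of Il17rc, 5.17% of those of Il6ra and 1.17% of those of Il6st. Whether reads were counted by strand is not given in the sources used here, so those values may hold reads of both strands.

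**Figure D5:**
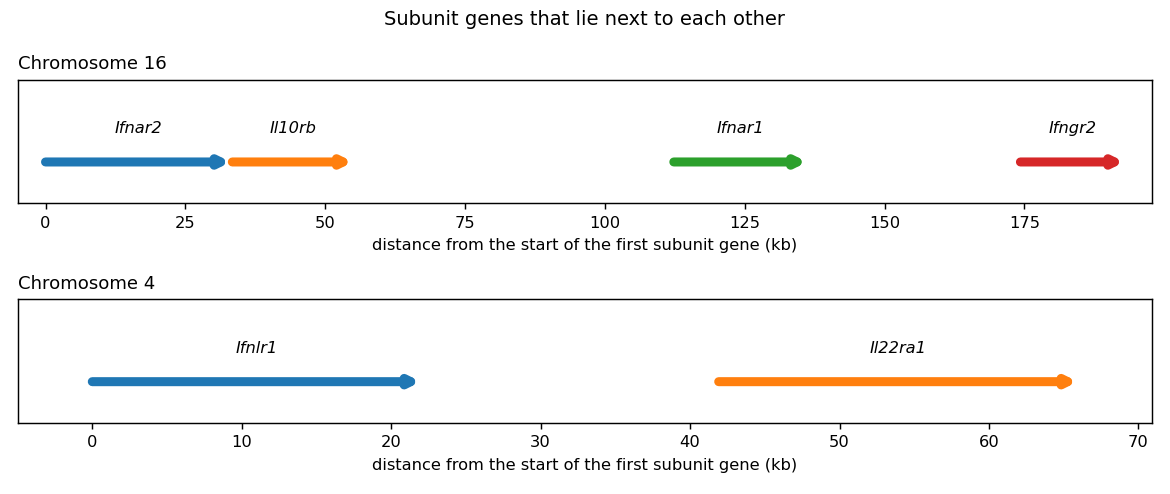
Position of the 4 subunit genes on chromosome 16 and the 2 on chromosome 4, to scale within each panel, as distance in kb from the start of the first subunit gene, with arrows in the direction of transcription. The chromosome 16 genes span 193 kb, with Ifnar2 and Il10rb 288 bases apart, and the chromosome 4 genes span 65.9 kb.

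Genes of the cytokines themselves were almost silent in these cells. Of 18 ligand genes, 14 had 0 counts in all 6 libraries, which allows at most 0.147 to 0.255 CPM per library, taking 3 counts as the limit and covering counting error only. They included the listed type I, gamma and lambda interferon genes, Il22, Il6, Osm, Il17a and Il17f. Lif, the ligand of Lifr and Il6st, was the one ligand gene tested, at 1.51, 1.27 and 1.40 CPM after PBS and 2.04, 1.96 and 2.09 CPM after TNF. The groups did not overlap, but the log2 fold change was 0.54 (SE 0.52, adjusted p 0.711).

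Other cytokine receptors gave a comparison for the chosen subunits. Of 29 such genes, 11 had 0 counts in all 6 libraries, among them the lymphocyte chains Il2rb, Il2rg and Il7r, and 12 were tested, 5 with a positive and 7 with a negative log2 fold change (median -0.08). With all 6 libraries edgeR and DESeq2 called 0 of them, and limma-voom with sample weights called 2 (Tgfbr2, adjusted p 0.0188, and Prlr, adjusted p 0.0114), beside 11.5% of all genes. In edgeR without TNF replicate 1, Tgfbr2, a TGF-beta receptor chain, was called higher (log2 fold change 3.14, SE 0.24, adjusted p 1.66e-05) and Prlr, the prolactin receptor, lower (-2.43, SE 0.28, adjusted p 0.000258). That fit called 9.1% of all genes higher and 5.4% lower. Tgfbr2 and Prlr were named after their values were seen, and whether the chosen subunits differ from these receptors was not tested.

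Below the receptors, the kinases and adaptors were all expressed. All 10 were tested, 7 with a positive and 3 with a negative log2 fold change (median 0.23), and with all libraries edgeR, DESeq2 and limma-voom with sample weights each called 0. Without TNF replicate 1, 3 were called higher, beside 9.1% of all genes. They were Stat2 (1.02, SE 0.23, adjusted p 0.0142) and Irf9 (1.41, SE 0.29, adjusted p 0.00894), partners in the interferon transcription complex ISGF3, and the phosphatase Ptpn11 (0.68, SE 0.20, adjusted p 0.0482). Among 7 negative regulators, 6 were tested, 3 in each direction (median -0.12). Socs3, which blocks gp130 and IL-22 signaling, was at 34.2, 24.6 and 22.5 CPM after PBS and 7.56, 5.09 and 20.5 CPM after TNF. Every TNF library was below every PBS library, yet the test was not passed (log2 fold change -1.30, SE 0.46, adjusted p 0.329, and -1.09, SE 0.45, adjusted p 0.137 without TNF replicate 1). Ptpn2, a phosphatase of JAKs and STATs, also did not overlap, with a log2 fold change of -0.28 (SE 0.21, adjusted p 0.628). With TNF replicate 1 left out, Usp18, which restrains signaling at Ifnar2, was called higher (5.45, SE 0.43, adjusted p 2.37e-05). Usp18 was untested with all libraries and entered that fit only through the TNF libraries kept, where it was high, so this call is a description. The 4 genes of receptor shedding, among them Adam10 and Adam17 that cleave Il6ra, had a median log2 fold change of 0.05 and none was called in either fit.

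Genes that these receptors are known to control were counted from lists of known targets. Over all genes, edgeR without TNF replicate 1 called 9.1% higher and 5.4% lower. With all 6 libraries the shares were 0% in edgeR, 1.86% in DESeq2 and 11.5% in limma-voom with sample weights. Of 16 interferon-gamma targets, 12 were tested, 10 with a positive log2 fold change (median 0.92). With all libraries edgeR called 0 of them, DESeq2 2 (Gbp2 and Tap1) and limma-voom with sample weights 3 (Irgm1, Tap1 and Psmb9). In the fit without TNF replicate 1, 9 of 14 tested were called higher, and Ciita, the master regulator of MHC class II genes, was called lower (-2.47, SE 0.67, adjusted p 0.0299). Gbp5 and Cxcl9, among those called higher, were untested with all 6 libraries. Both entered that fit only through TNF replicates 2 and 3, where they were high, so their calls are a description. Ido1, a tryptophan-degrading enzyme, was at 0.577, 0 and 0 CPM after PBS and 0.935, 37.0 and 28.7 CPM after TNF, so that TNF replicate 1 lay near PBS (log2 fold change 6.82, SE 1.41, adjusted p 0.270). Ido1 passed the filter only through TNF libraries, with and without TNF replicate 1. Its fold change and its call without TNF replicate 1 are therefore a description. Psmb9, an immunoproteasome subunit, was at 6.85, 6.81 and 8.52 CPM after PBS and 10.9, 14.5 and 18.2 CPM after TNF, with no overlap (log2 fold change 0.97, SE 0.28, adjusted p 0.278). Of 15 targets of type I and III interferons, 9 were tested, 8 with a positive log2 fold change (median 1.41), and with all libraries edgeR called 0, DESeq2 1 (Rtp4) and limma-voom with sample weights 2 (Oas1a and Bst2). Leaving TNF replicate 1 out, 9 of 12 tested were called higher and 0 lower, in mice labeled as lacking Ifnar1. Ifit1 and Usp18, among those called, likewise entered only through TNF replicates 2 and 3. Bst2, an antiviral membrane protein, was at 1.88, 2.54 and 3.38 CPM after PBS and 3.65, 9.15 and 6.12 CPM after TNF (log2 fold change 1.28, SE 0.45, adjusted p 0.326).

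For IL-22 and IL-6, 6 of 15 targets were tested, 4 with a positive log2 fold change (median 0.99). With all libraries edgeR called 0, while DESeq2 and limma-voom with sample weights each called 3 (Reg3b, Reg3g and Bcl3), beside 1.86% and 11.5% of all genes. In edgeR without TNF replicate 1, 8 of 12 tested were called higher, beside 9.1% of all genes. Of these, Reg3a, Lcn2, Saa3, S100a9 and Lrg1 were untested with all 6 libraries. They entered that fit only through TNF replicates 2 and 3, where they were high, so their calls are a description. Socs3, given above and also on this list, was lower in every TNF library (log2 fold change -1.30, adjusted p 0.329). Bcl3, a nuclear partner of NF-kB listed among these targets, was lower too, at 18.2, 11.3 and 14.5 CPM after PBS and 4.42, 2.74 and 4.67 CPM after TNF. The groups did not overlap for Bcl3 (log2 fold change -1.90, SE 0.33, adjusted p 0.270), and Bcl3 was called lower without TNF replicate 1 (-1.98, SE 0.34, adjusted p 0.00313). The antimicrobial lectins Reg3b and Reg3g had log2 fold changes of 4.31 (SE 0.99, adjusted p 0.270) and 3.14 (SE 0.80, adjusted p 0.270), with TNF replicate 1 the lowest TNF library of both. Of 12 IL-17 targets, 7 were tested, 5 with a positive log2 fold change (median 0.55). EdgeR called 0 with all libraries, DESeq2 3 (Ccl20, Duox2 and Duoxa2) and limma-voom with sample weights 4 (these and Nfkbiz). In edgeR without TNF replicate 1, 6 of 10 tested were called higher, beside the same 9.1% of all genes. Among them, Lcn2, Cxcl1 and Cxcl2 likewise entered only through TNF replicates 2 and 3. Duox2, an epithelial oxidase, was at 21.4, 20.4 and 21.7 CPM after PBS and 24.0, 412 and 254 CPM after TNF (log2 fold change 3.44, SE 0.78, adjusted p 0.270). Ccl20, a chemokine, was at 0.866, 0.667 and 0.0735 CPM after PBS and 1.70, 5.72 and 12.97 CPM after TNF (log2 fold change 3.64, SE 0.89, adjusted p 0.270). Nfkbiz, a co-activator of IL-17 and NF-kB target genes, was at 28.7, 38.0 and 30.6 CPM after PBS and 26.1, 9.34 and 11.6 CPM after TNF (log2 fold change -1.06, SE 0.37, adjusted p 0.324). Nfkbiz was called lower without TNF replicate 1 (-1.62, SE 0.24, adjusted p 0.00114). Some genes stand in more than 1 of these lists, and TNF itself is known to induce several of them, so the counts do not tell which receptor was engaged.

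Patterns over the 6 libraries were also compared, as Pearson correlations of log2 CPM that share the same 6 libraries and their depth and are given as a description. Ifngr1 and Ifngr2 correlated at 0.951, Ifngr2 and Ifnar2 at 0.944, Ifngr2 and Il6st at 0.934 and Il10rb and Il17rc at 0.948, and the most opposed pair was Ifngr1 and Ifnlr1, at -0.811. Among tested genes whose average log2 CPM was 2 or more, the patterns most like that of Ifngr2 were Gipc1 (0.9996) and Tpd52l1 (0.998). For Ifngr1 they were Gfer (0.998) and Nxn (0.995), for Il6st Lgals3bp (0.999) and B3gnt3 (0.999), for Il17rc Plekha1 (0.998) and Pgap6 (0.996), and for Ifnlr1 Myo7b (0.992) and Ubp1 (0.988). Ifnar2 was most like Mapk4 (0.997) and Commd9 (0.995), Ifnar1 like Zfp952 (0.990) and 9430038I01Rik (0.981), and Il10rb like Nlrx1 (0.995) and Cltc (0.994). Il22ra1 was most like Dis3l2 (0.984) and Rnf20 (0.975), and Il6ra like Pmvk (0.982) and Dis3 (0.975).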

How the data were processed

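PCs had been sorted from 6 mice, and their RNA was sequenced single-end on an Element AVITI. The deposited file was 1 table of raw counts per Ensembl gene with 6 columns, 1 per library, and 0 unused columns of sample values. The submitters' processing notes name FastQC, Trimmomatic 0.39, STAR 2.7.10a, DESeq2 and the build mm39. Not given in the sources used here were the counting tool, the annotation release, whether strand was used and how reads with several alignments were treated. Reads shared by overlapping genes are therefore uncertain.

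Gene symbols, positions and exon lengths came from GENCODE for GRCm39, with 54749 of 55414 identifiers matched. TNF was compared with PBS in R 4.3.3 with edgeR 4.0.16, using filterByExpr (minimum count 10, minimum total 15), trimmed mean of M-values (TMM) scaling and a two-sided quasi-likelihood test with group as the only term. The filter kept 13026 genes holding 99.8% of the counts, and p-values were Benjamini-Hochberg adjusted over all of them. CPM used TMM-scaled library sizes. The standard error (SE) was obtained from the log2 fold change and the root of its F statistic. Levels between genes were divided by the kilobases of all annotated exons. Ratios of chains within a receptor were compared with exact permutation tests in SciPy 1.17.1 and adjusted over the 6 ratios. The edgeR script was first tested on simulated counts with known fold changes.

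The subunits and the other 18 gene lists were chosen with earlier results of these data known. The lists hold the 8 sets of cell type markers and the partner chains, other cytokine receptors, ligands, kinases and adaptors, negative regulators, shedding genes and the 4 sets of receptor targets. The text names all 10 subunits, all detected partner chains and, from each other list, up to 3 tested genes with the smallest unadjusted p whose groups did not overlap. It also names, for each subunit, the 2 genes whose log2 CPM correlated best with it, among those averaging a log2 CPM of 2 or more. Genes named only because they were called without TNF replicate 1 or by another tool, and examples of genes at 0, were chosen after their values were seen. As alternatives, scaling used RLE (relative log expression) factors, library size alone, or TMM without genes above 1% of counts, and the filter was dropped or replaced by a mean CPM of 1. Further ones were DESeq2 1.42.0, limma-voom from limma 3.58.1 with and without sample weights, the replicate number as a block, leaving out each library in turn, a pseudocount of 0.5 in the chain ratios and other transcript lengths, of which the canonical transcript was added after seeing the data. Promoter windows came from RefSeq records on GRCm38.p6 and were matched exactly to GRCm39.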

Additional observations from a re-analysis of the deposited data

How the results depend on the processing

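The calls depended on the library of TNF replicate 1 and on the tool. The number of genes past 5% was 0 with all 6 libraries, 690 without a low-count filter, 242 by DESeq2, 1501 by limma-voom with sample weights and, leaving out each library in turn, 0 to 1980, where 1980 is the count without TNF replicate 1. The number of subunits past 5% was 0, and it was 2 without a low-count filter (Ifngr1 and Ifngr2), 2 by DESeq2, 3 with sample weights (Ifngr1, Ifngr2 and Il6st) and 0 to 4 leaving out each library in turn. With RLE factors, library size alone, scaling without genes above 1% of counts, a mean CPM of at least 1 and limma-voom without weights, 0 genes passed.

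The log2 fold change of Il10rb turned to -0.0441 with library size alone, -0.0116 with scaling without genes above 1% of counts and -0.0024 without a low-count filter, and library size alone moved the median of all genes to -0.11. Leaving out each library in turn gave log2 fold changes of -0.27 to 0.39 for Ifnar1, -0.088 to 0.20 for Il10rb and -0.17 to 0.71 for Il6ra, and differences of -0.80 to 0.19 for the ratio of Il6ra to Il6st and -0.0142 to 0.57 for that of Il17rc to Il17ra, so the signs of these 5 values are not settled. The cause was not tested. Ifngr1, Ifngr2, Ifnar2, Il6st and Il17rc stayed positive and Ifnlr1 and Il22ra1 negative in all settings run.

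Groups shared replicate numbers, but same-numbered libraries deviated together no more than others (correlations of -0.01, -0.07 and 0.03). Because TNF replicate 1 stood far from the other TNF libraries, this check could miss a pairing. Whether the numbers mark pairs is not settled. With the replicate block, 0 genes and 0 subunits passed. An unadjusted p under 0.05 was found for 2 of 10 subunits and for 1395 of 13026 genes. Depth limited Ifnlr1, Ifnar2 and Il6ra, which rest on as few as 21, 42 and 35 counts in a library.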
